A study of Mus musculus with 4 samples.

Results

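The vitamin D receptor gene Vdr, its partner Rxra and 6 genes that move or sense calcium and other divalent cations (Trpv6, S100g, Atp2b1, Slc8a1, Casr and Slc30a10) were followed in bulk RNA-seq of mouse intestine. The 8 genes were chosen by name, from 55203 genes in the deposited tables, and they hold 41 of the 141738 transcript rows. A gene's level is the sum of FPKM (fragments mapped to a transcript, relative to its length and to all mapped fragments) over its transcript rows. The genes were chosen with the values of these libraries known, so their levels are given as a description.

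The study sequenced 4 libraries to have an expression measure beside its imaging of the gut. All came from wild-type male C57BL/6NTac mice aged 8 to 12 weeks, kept in specific-pathogen-free condition and given food and water freely. The RVC libraries (2) are labelled as tissue processed with 4 mM ribonucleoside vanadyl complex, an inhibitor of RNases, and the FF libraries (2) as fresh-frozen tissue. The same protocol text, a flush and rinse with that compound in cold phosphate-buffered saline, is attached to all 4 libraries. Each library carries its own batch number, 1 to 4, so batch and library cannot be told apart, and whether the libraries come from separate mice is not stated. Any p-value then measures only the spread between these libraries, which may be technical.

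The tissue label reads ileum, whereas the protocol names distal colon. The colon genes Car1 and Hoxb13 averaged 1655 and 122 FPKM, while of 5 ileum genes Fgf15, Apoa4 and Defa22 were listed at 0 in all 4 libraries and Fabp6 averaged 3.37 FPKM. The levels below are therefore those of tissue with colon genes high and ileum genes low. Coverage per FPKM put the relative depth of RVC 1, RVC 2 and FF 1 at 81.8%, 79.8% and 72.6% of that of FF 2, and no read counts were used. Summed FPKM of 10 smooth muscle markers was 1193 and 1757 in RVC against 747 and 798 in FF, and that of 9 epithelial markers was 6675 to 6857 in RVC and 5544 to 7416 in FF.

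VDR is a nuclear receptor for the active form of vitamin D, and it binds DNA as a heterodimer with a retinoid X receptor such as RXRA. In intestinal epithelium the classical route of calcium absorption runs from the apical channel TRPV6, through the cytosolic binding protein calbindin-D9k (S100g), to export by the plasma membrane calcium pump PMCA1 (Atp2b1) and the sodium-calcium exchanger NCX1 (Slc8a1). CASR is the G-protein-coupled receptor for extracellular calcium, and SLC30A10 is a manganese exporter whose gene, like Trpv6 and S100g, is known as a vitamin D target in intestinal cells.

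The sequences that the results turn on are those of the 3 genes that varied most among the tested ones. For S100g and Trpv6, which held the same order of libraries, the 250 bases upstream of the listed transcript start were read from GRCm39, 5′ to 3′ on the gene's strand. The windows are chrX:161747596-161747845 (minus strand) for S100g and chr6:41613340-41613589 (minus strand) for Trpv6. Capitals mark matches to AGGTCA on either strand (TGACCT where it lies on the other strand) and, in Trpv6, to CAAAGTCCA.
S100g upstream window: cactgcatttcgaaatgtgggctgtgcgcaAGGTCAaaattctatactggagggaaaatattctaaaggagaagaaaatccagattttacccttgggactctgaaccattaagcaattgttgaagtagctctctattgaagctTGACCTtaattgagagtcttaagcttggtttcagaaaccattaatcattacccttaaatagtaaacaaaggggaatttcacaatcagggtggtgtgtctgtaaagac
Trpv6 upstream window: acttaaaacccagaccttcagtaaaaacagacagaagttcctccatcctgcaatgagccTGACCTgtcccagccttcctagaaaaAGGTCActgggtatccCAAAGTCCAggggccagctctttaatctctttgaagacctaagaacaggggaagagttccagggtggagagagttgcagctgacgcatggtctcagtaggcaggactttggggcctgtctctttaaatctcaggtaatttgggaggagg

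AGGTCA, the core hexamer of many nuclear receptor sites, began 220 bases (plus sense) and 107 bases (minus sense) before the S100g start, and 191 (minus sense) and 165 bases (plus sense) before that of Trpv6. The 9-base HNF4A motif CAAAGTCCA began 149 bases before the Trpv6 start. Across 32851 promoter windows of the same length from RefSeq (GRCm38.p6), 14.02% held AGGTCA and 0.3835% held CAAAGTCCA on either strand. The Slc30a10 window held neither. It was taken upstream of the deposited start, which lies inside exon 1 in GENCODE vM39, so the window overlaps that exon. The VDR element of direct repeats with a 3-base spacer (DR3), TATAAA and GGGCGG were searched on both strands too and matched in none of these 3 windows; they matched in 0.03957%, 12.37% and 32.74% of the RefSeq windows. These are letter matches in a short window, not binding sites. For S100g the listed transcript itself opens with TATAAAAG (chrX:161747588-161747595, minus strand).

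S100g is the shortest of the 8 genes, with a single listed transcript of 480 nt and 3 exons. Its reading frame, shown because the level of this gene does not depend on dividing reads among transcripts, spans 2 exons and encodes 79 residues (GRCm39 chrX:161745132-161747192, minus strand, introns removed, start and stop codons in capitals).
S100g coding sequence: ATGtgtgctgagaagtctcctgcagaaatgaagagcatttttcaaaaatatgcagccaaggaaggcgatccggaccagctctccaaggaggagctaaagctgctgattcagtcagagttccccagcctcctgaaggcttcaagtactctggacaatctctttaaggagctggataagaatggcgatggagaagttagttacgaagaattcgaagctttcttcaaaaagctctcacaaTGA

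For Slc30a10 the finding rests on 2 transcripts that differ where exon 1 joins exon 2, shown with 30 bases on each side. Their deposited starts differ too, at position 185187045 for Slc30a10-201 and 185187235 for Slc30a10-203, so the junction is not their only difference. In GENCODE vM39 exon 1 of Slc30a10-201 starts further upstream, at 185186973. The capitals are 38 bases, chr1:185188511-185188548 (GRCm39, plus strand), that Slc30a10-203, annotated for nonsense-mediated decay, includes and Slc30a10-201 lacks. Slc30a10-202, a row with a retained intron, was not compared with them, so these bases need not be particular to the decay row.
Slc30a10-201 junction, coding: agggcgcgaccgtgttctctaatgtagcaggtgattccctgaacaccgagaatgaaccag
Slc30a10-203 junction, nonsense-mediated decay: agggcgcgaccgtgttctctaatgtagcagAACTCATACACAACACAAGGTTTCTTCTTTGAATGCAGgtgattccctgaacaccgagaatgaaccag

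The 8 genes spanned more than 3 orders of magnitude on the FPKM scale, which is per length and allows levels to be set side by side between genes. Atp2b1 stood highest (118 FPKM, mean of 4 libraries) and Vdr next (100.4), with ranges that did not touch and a ratio of means of 1.18. S100g (19.8 FPKM) was 5.06-fold below Vdr, and its range overlapped that of Rxra (15.9 FPKM), S100g being the higher in 2 of 4 libraries. Rxra lay above Slc8a1 (9.27 FPKM) in all 4 libraries, without overlap of the ranges. The ranges of Slc8a1 and Slc30a10 (5.34 FPKM) overlapped, as did those of Slc30a10 and Trpv6 (3.61 FPKM), although Slc8a1 was the higher of its pair in 4 of 4 libraries and Slc30a10 of its pair in 3 of 4. Casr came last at 0.0791 FPKM, 45.6-fold below Trpv6.

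**Figure D1:**
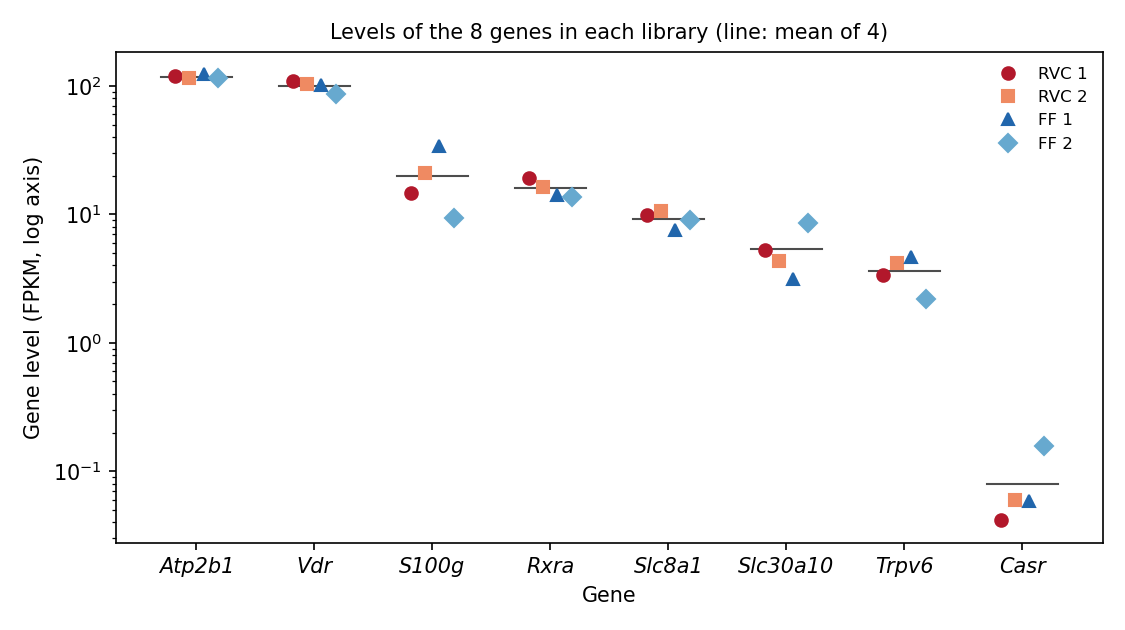
Gene level in FPKM (log axis) of the 8 genes in each library, ordered by mean; symbols are single libraries and the line is the mean of 4. Atp2b1 and Vdr lie near 100 FPKM in every library, S100g spreads from 9.33 to 34.1, and Casr stays under 0.16.

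Between RVC and FF, none of the 7 genes tested passed the threshold, an adjusted p of 0.05 from limma with Benjamini-Hochberg adjustment over all 13771 genes tested. In that fit 0.0363% of all genes passed, 0.0145% higher and 0.0218% lower in RVC. Without adjustment 1 of the 7 (Rxra) fell under 0.05, as did 18.4% of all genes. Vdr, Rxra and Slc8a1 were higher in both RVC libraries than in both FF libraries, the other 4 overlapped, and none was lower throughout. The groups did not overlap for 53.2% of all genes, 26.5% being higher and 26.6% lower in RVC, and read against these shares the 3 of 7 is no result about these genes. With 2 libraries against 2, an exact two-sided permutation test of a single gene cannot go below p = 0.333.

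Vdr (ENSMUSG00000022479, chr15:97752306-97808511, minus strand) was expressed at 110 and 104 FPKM in the RVC libraries and at 102 and 86.0 FPKM in the FF libraries. The RVC values lay above both FF values, but RVC 2 and FF 1 differed by less than the gap between the FF libraries. The log2 fold change of scaled FPKM plus 1, RVC minus FF, was 0.19 ± 0.12 (SE; limma adjusted p = 0.408). In bulk tissue, fewer cells of a type and less RNA per cell cannot be told apart. Over the 4 libraries Vdr averaged 100.4 ± 10.2 FPKM (SD, n = 4), a coefficient of variation of 10.1%.

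Nearly all of the Vdr level belonged to a single transcript. Vdr-201 (ENSMUST00000023119, 4370 nt, 10 exons) took 89.9%, 89.8%, 91.3% and 91.1% of the gene's FPKM in RVC 1, RVC 2, FF 1 and FF 2. The other 5 rows are short coding fragments and a row with a retained intron, and none averaged above 3.92%. Relative to the summed epithelial markers, Vdr was 16.0, 15.5, 13.8 and 15.5 FPKM per 1000 FPKM in the same order, so FF 2, lowest in FPKM, was no longer lowest on this scale.

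Rxra (ENSMUSG00000015846, chr2:27566452-27652969, plus strand) was lower than Vdr in every library. Its level was 19.4 and 16.4 FPKM in RVC and 14.2 and 13.7 FPKM in FF, the same order of libraries as Vdr. The log2 fold change, on the scale above, was 0.34 ± 0.12 (SE; limma adjusted p = 0.220). The ratio of Vdr to Rxra FPKM was 5.67, 6.31, 7.18 and 6.29 in RVC 1, RVC 2, FF 1 and FF 2. Rxra-201 (ENSMUST00000077257, 4905 nt) held 91.2% to 98.5% of the gene's FPKM. Among the paralogs, Rxrb averaged 7.71 FPKM and Rxrg 0.0497 FPKM, so Rxra was the most abundant of the 3 RXR genes.

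Around the receptor pair, 11 of 12 genes for VDR, RXR and their coregulators were at or above 1 FPKM in all 4 libraries. None of the 11 tested passed in either direction, and the median log2 fold change was 0.14 beside 0.0066 over all genes tested. Without overlap, 5 were higher and 1 lower in RVC, beside 26.5% higher and 26.6% lower among all genes tested. In either direction, 6 of 11 is close to the 53.2% of all genes without overlap. Besides Vdr, the most abundant were the corepressor gene Ncor1 (34.9 FPKM), the acetyltransferase gene Ep300 (20.0 FPKM) and Rxra itself. Of 13 genes for other receptors that pair with RXR, 12 were tested, 5 were higher and 2 lower in RVC without overlap (26.5% and 26.6% of all genes), the median log2 fold change was 0.15 and none passed. Vdr stood above every gene of that list, of which Ppard (42.9 FPKM), Nr1h2 (23.6), Pparg (22.0) and Nr1i2 (20.2) were highest.

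Genes that make, carry or degrade vitamin D were mostly low. Only 2 of 8 reached 1 FPKM in every library, Dhcr7 (33.3 FPKM), which turns the precursor 7-dehydrocholesterol into cholesterol, and Cyp27a1 (13.2 FPKM), a mitochondrial sterol hydroxylase. Cyp27a1 was 16.0 and 14.5 FPKM in RVC and 12.4 and 9.67 FPKM in FF, the same order of libraries as Vdr and Rxra. It was higher in RVC without overlap, as were 26.5% of all genes tested. Its log2 fold change of 0.45 did not pass (limma adjusted p = 0.184). The other gene tested overlapped between groups, none of the 2 passed, and the list's median was 0.22. Cyp24a1, the catabolic enzyme and a classical VDR target, and Gc, the plasma carrier, were listed at 0 in all 4 libraries, and the activating enzyme gene Cyp27b1 ranged from 0.0168 to 0.0399 FPKM.

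Trpv6 (ENSMUSG00000029868, chr6:41597558-41613339, minus strand), the apical entry channel, was low and uneven. It measured 3.40 and 4.21 FPKM in RVC and 4.65 and 2.18 FPKM in FF. FF 1 was the highest and FF 2 the lowest of the 4 libraries, so the RVC values lay between the FF values. FF 1 exceeded FF 2 by 2.13-fold in FPKM. In log2 of scaled FPKM plus 1, where the gap of a low gene is narrower, 1.49% of all genes tested had a gap between these libraries at least that of Trpv6. The log2 fold change between groups was 0.18 ± 0.26 (SE; limma adjusted p = 0.724), and it turned to -0.22 without FF 2.

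The spread of Trpv6 was that of its full-length transcript. Trpv6-201 (ENSMUST00000031902, 2923 nt, 15 exons) averaged 96.9% of the gene's FPKM, and a row with retained introns held the rest. The Cufflinks bounds of Trpv6-201, which cover the estimate within a library and not the spread between libraries, were 3.91 to 5.01 FPKM in FF 1 and 1.84 to 2.48 FPKM in FF 2 and so lay apart. In GENCODE vM39, 1112 of the 3940 exon bases of Trpv6 are also exon of Ephb6 on the other strand. Ephb6 measured 2.48, 4.67, 3.14 and 1.73 FPKM in RVC 1, RVC 2, FF 1 and FF 2, lowest in FF 2 as Trpv6 was, but highest in RVC 2. No strand setting is named in the sources used here, and without one reads of the shared bases cannot be told apart.

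In the list for calcium entry, 10 of 11 genes were at or above 1 FPKM in every library, and Trpv5, the renal relative of Trpv6, was listed at 0. The highest were the store sensor gene Stim1 (31.6 FPKM), the channel-kinase gene Trpm6 (28.4), known for magnesium uptake, Stim2 (12.2) and Trpm7 (12.0). None of the 10 tested passed, 4 were higher and 4 lower in RVC without overlap (26.5% and 26.6% of all genes), and the median log2 fold change was 0.05. Trpv6 thus lay below its relatives Trpm6 and Trpm7 in every library.

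S100g (ENSMUSG00000040808, chrX:161744988-161747595, minus strand), the calbindin-D9k gene, varied most among the 7 tested genes. It measured 14.8 and 21.1 FPKM in RVC and 34.1 and 9.33 FPKM in FF. The order of libraries, FF 2, RVC 1, RVC 2, FF 1, was that of Trpv6, and again the RVC values lay between the FF values. Its coefficient of variation was 53.7%, against 3.65% for Atp2b1. FF 1 exceeded FF 2 by 3.65-fold in FPKM, and the Cufflinks bounds (29.8 to 38.3 and 7.44 to 11.2 FPKM) lay far apart. In log2 of scaled FPKM plus 1, 0.298% of all genes tested had a gap between these libraries at least that of S100g.

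The mean log2 fold change of S100g between the groups was -0.02 ± 0.49 (SE; limma adjusted p = 0.986). It was 0.85 without FF 1 and 0.22 without RVC 1, so its sign rested on single libraries. Exons of S100g share 0 bases with exons of Ctps2, the gene that overlaps it on the other strand. Per 1000 FPKM of summed epithelial markers S100g was 2.15, 3.17, 4.59 and 1.68 in RVC 1, RVC 2, FF 1 and FF 2, and FF 1 exceeded FF 2 by 2.73-fold on that scale. Trpv6 on the same scale was 0.495, 0.630, 0.627 and 0.393, with a ratio of 1.59 and with RVC 2 as its highest library. The part of epithelial content in these gaps was not tested.

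The other mobile calcium buffers of the list were low. Calb2 (calretinin) averaged 5.43 FPKM and ran from 3.60 to 7.58 FPKM, below S100g in every library, Calb1 (calbindin-D28k) did not exceed 0.0754 FPKM and Pvalb was listed at 0. Of the 7 genes of the list 5 were tested and none passed, and the median log2 fold change was -0.05. Without overlap, 1 was higher and 1 lower in RVC, beside 26.5% and 26.6% of all genes tested.

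Atp2b1 (ENSMUSG00000019943, chr10:98750268-98862005, plus strand), the exporter at the end of the route, was the steadiest of the 8 genes. Its level was 119 and 116 FPKM in RVC and 124 and 115 FPKM in FF. The groups overlapped, the highest and lowest libraries differed by 1.08-fold, and the log2 fold change was -0.02 ± 0.11 (SE; limma adjusted p = 0.924). FF 1 and FF 2, which differed 3.65-fold in S100g, thus differed by no more than this in Atp2b1.

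The Atp2b1 level was divided among 11 transcript rows. The full-length Atp2b1-201 (ENSMUST00000020107, 7130 nt, 21 exons) held 48.4%, 51.5%, 52.6% and 50.1% of the FPKM in RVC 1, RVC 2, FF 1 and FF 2. Atp2b1-208 (ENSMUST00000219624, 1588 nt, 9 exons) held 28.6% to 32.4%, and Atp2b1-207 (1249 nt, 4 exons) averaged 10.4%. Of the bases of Atp2b1-208, 95.4% lie in other rows too, and of Atp2b1-207 all but 8 bases, so these shares are model estimates over largely common sequence. With Atp2b1-201 alone the mean level was 60.0 FPKM, below that of Vdr.

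Slc8a1 (ENSMUSG00000054640, chr17:81680534-82045806, minus strand), the sodium-calcium exchanger gene, lay well below the pump. It measured 9.92 and 10.6 FPKM in RVC and 7.53 and 8.97 FPKM in FF, higher in both RVC libraries. The log2 fold change was 0.29 ± 0.13 (SE; limma adjusted p = 0.289). All 10 smooth muscle markers were likewise higher in RVC without overlap, beside 26.5% of all genes tested. Their log2 fold changes had a median of 0.77, their summed levels were 1193 to 1757 FPKM in RVC and 747 to 798 FPKM in FF, and none of them was at 0. All 5 endothelial markers were higher too, with summed levels of 18.5 to 19.4 FPKM in RVC and 9.74 to 11.8 FPKM in FF. So were all 4 plasma cell markers, with summed levels of 818 to 920 FPKM in RVC and 310 to 526 FPKM in FF. Other marker lists were mixed. Without overlap, 1 of 3 markers of interstitial cells of Cajal, 1 of 7 enteric neuron markers tested and 3 of 9 epithelial markers were higher. The 1 enteric glia marker tested was higher too, and none of these lists held a marker that was lower without overlap. The part of these cell types in the Slc8a1 difference was not tested.

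The leading Slc8a1 row was a short one. Slc8a1-205 (ENSMUST00000234923, 2017 nt) has 2 exons and took 63.1% to 68.1% of the gene's FPKM, and 1830 of its 2017 bases lie in an exon that all 5 other rows share in part. Without that row Slc8a1 summed to 3.35 and 3.87 FPKM in RVC and 2.40 and 3.31 FPKM in FF, still without overlap, though RVC 1 and FF 2 were then close. The 18464-nt row Slc8a1-204 held 18.1% in FF 2 and 9.95% to 13.2% in the other libraries. Because FPKM divides by length, the short row weighs more in the sum than the same number of fragments on the long rows would.

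**Figure D2:**
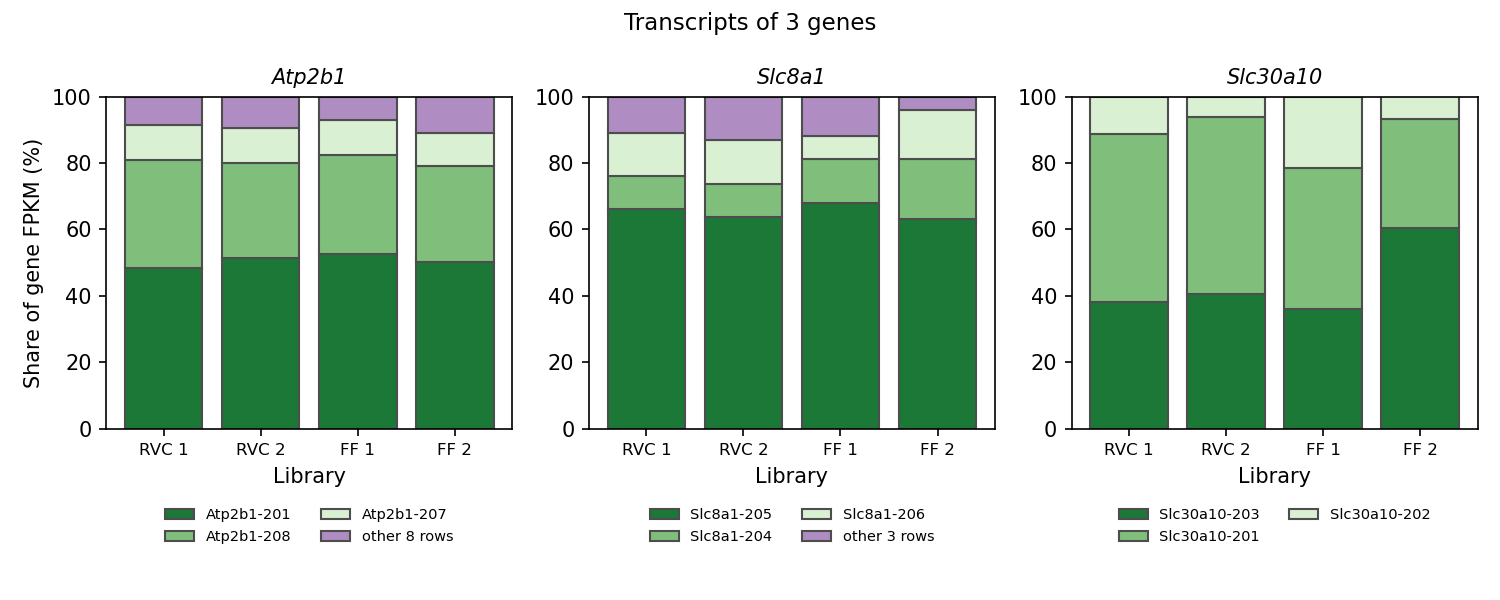
Share of the gene's FPKM (%) held by each transcript row of Atp2b1, Slc8a1 and Slc30a10, one bar per library, with transcripts named as in Ensembl. The leading row holds 48.4% to 52.6% for Atp2b1 and 63.1% to 68.1% for Slc8a1, whereas Slc30a10-203 holds 60.4% in FF 2 and at most 40.7% in the others.

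Few of the listed genes for calcium export were expressed. Of 13 pump and exchanger genes, 5 were at or above 1 FPKM in every library: Atp2b1, the mitochondrial exchanger gene Slc8b1 (16.9 FPKM), Atp2b4 (12.7), Slc8a1 and Slc24a3 (6.86). Atp2b1 was the highest of them by a wide margin, and its paralogs Atp2b2 and Atp2b3 averaged 0.223 and 0.218 FPKM. Slc8a2 and Slc8a3, paralogs of Slc8a1, averaged 0.435 and 0.304 FPKM. None of the 5 tested passed, and the median log2 fold change was 0.30. Without overlap, 4 were higher in RVC (all but Atp2b1) and none lower, beside 26.5% and 26.6% of all genes tested. The smooth muscle (10 of 10), endothelial (5 of 5) and plasma cell (4 of 4) markers were higher in the same libraries. So were 3 of 9 epithelial markers and 1 of 7 enteric neuron markers tested. The part of those cell types in these 4 differences was not tested. Among 12 genes of intracellular stores, 9 were tested and none passed, 1 was higher and 2 lower without overlap, and the median was 0.02, with Calr (128 FPKM), Atp2a3 (105) and Atp2a2 (39.5) the highest.

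Casr (ENSMUSG00000051980, chr16:36314058-36382503, minus strand), the receptor for extracellular calcium, was near 0 throughout. It was listed at 0.0415 and 0.0593 FPKM in RVC and at 0.0584 and 0.157 FPKM in FF, and it was not tested because it fell below the filter of a mean of 1 scaled FPKM. Of the 16 estimates (4 rows in 4 libraries), 3 had a lower Cufflinks bound above 0. In FF 2, 60.1% of the FPKM sat on the 400-nt row Casr-204, whose bounds were 0 to 0.395 FPKM, so the higher FF 2 value cannot be told from the others at this depth. The G-protein genes through which the receptor signals were higher, Gna11 at 66.4 and Gnaq at 14.0 FPKM. Only these 2 of the 5 sensing genes were tested, both groups overlapped, neither passed and the median log2 fold change was 0.08.

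Slc30a10 (ENSMUSG00000026614, chr1:185187045-185200959, plus strand) ran opposite to S100g and Trpv6. It measured 5.27 and 4.36 FPKM in RVC and 3.13 and 8.58 FPKM in FF. Its libraries rose in the order FF 1, RVC 2, RVC 1, FF 2, the exact reverse, and FF 2 was the highest library where it had been the lowest for S100g. FF 2 was 2.74-fold above FF 1 in FPKM. In log2 of scaled FPKM plus 1, 0.61% of all genes tested had a gap between these libraries, in either direction, at least that of Slc30a10. Per 1000 FPKM of summed epithelial markers Slc30a10 was 0.769, 0.654, 0.422 and 1.55 in RVC 1, RVC 2, FF 1 and FF 2. The gap was wider on that scale, with an FF 1 to FF 2 ratio of 0.273 beside 0.365 in FPKM. The part of epithelial content in this gap was not tested. The log2 fold change between groups was -0.11 ± 0.35 (SE; limma adjusted p = 0.884), and it was 0.50 without FF 2 and 0.0021 without RVC 2. Because the orders are opposite, the ratio of S100g to Slc30a10 FPKM ran over a wide span, 2.80, 4.84, 10.9 and 1.09 in RVC 1, RVC 2, FF 1 and FF 2.

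As Cufflinks divided the reads, the high value in FF 2 lay mainly in a transcript that is not coding for the full protein. The rows overlap, so their levels are model estimates. Slc30a10-203 (ENSMUST00000238677, 5684 nt), annotated for nonsense-mediated decay, stood at 2.02 and 1.77 FPKM in RVC and at 1.13 and 5.19 FPKM in FF. The coding Slc30a10-201 (ENSMUST00000061093, 5836 nt) stood at 2.67 and 2.31 FPKM in RVC and at 1.33 and 2.81 FPKM in FF. The ratio of the former to the latter was 0.757, 0.767 and 0.852 in RVC 1, RVC 2 and FF 1 and 1.84 in FF 2. In FF 2 the Cufflinks bounds of the pair (4.73 to 5.64 and 2.47 to 3.16 FPKM) lay apart. In the other 3 libraries the decay row was the lower of the pair, but the bounds of the pair overlapped.

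The difference between these rows at the exon 1 to exon 2 junction is the 38-base stretch printed in capitals above. The annotated reading frame of Slc30a10-203 ends, stop included, at position 185188542 of chromosome 1, inside that stretch. Without the decay row, Slc30a10 summed to 3.26 and 2.59 FPKM in RVC and 2.00 and 3.39 FPKM in FF, so FF 2 remained highest and FF 1 lowest, with a narrower spread. Gm2061, on the other strand, shares 533 of the 6580 exon bases of Slc30a10 and measured 1.69, 1.10, 1.10 and 2.13 FPKM in RVC 1, RVC 2, FF 1 and FF 2. It was likewise highest in FF 2, and its part in the Slc30a10 level was not tested.

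The 12 other zinc, manganese and iron transporter genes tested spread less than Slc30a10, the highest library exceeding the lowest by at most 1.74-fold (Slc39a4). The iron exporter gene Slc40a1 (119 FPKM), the zinc importer gene Slc39a4 (37.3), Slc30a9 (20.8) and Slc39a5 (16.1) were the highest, and Slc30a10 lay below 6 of its Slc30 relatives on average, namely Slc30a1, Slc30a4, Slc30a5, Slc30a6, Slc30a7 and Slc30a9. Slc30a3 and Slc30a8 were listed at 0. None of the 13 tested of 16 passed, and the median log2 fold change was -0.17. Without overlap, 2 were higher and 6 lower in RVC, beside 26.5% higher and 26.6% lower among all genes tested.

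Of 8 known vitamin D targets in the list, 6 were tested and none passed. Trpv6, S100g, Atp2b1 and Slc30a10 all had overlapping groups, as did the claudin gene Cldn12 (16.5 FPKM). Cldn2, which encodes a claudin that forms cation pores, measured 8.09 and 9.18 FPKM in RVC and 13.5 and 11.2 FPKM in FF. It was lower in RVC without overlap, as were 26.6% of all genes tested. Its log2 fold change of -0.46 did not pass (limma adjusted p = 0.163). Cyp24a1 and Cyp3a11 were listed at 0, and the list's median was -0.02. Vdr itself differed by at most 1.28-fold between any 2 libraries, and the 6 tested targets lay on both sides of that. Atp2b1 (1.08-fold) and Cldn12 (1.14-fold) varied less, and Cldn2 (1.67-fold), Trpv6 (2.13-fold), Slc30a10 (2.74-fold) and S100g (3.65-fold) varied more.

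**Figure D3:**
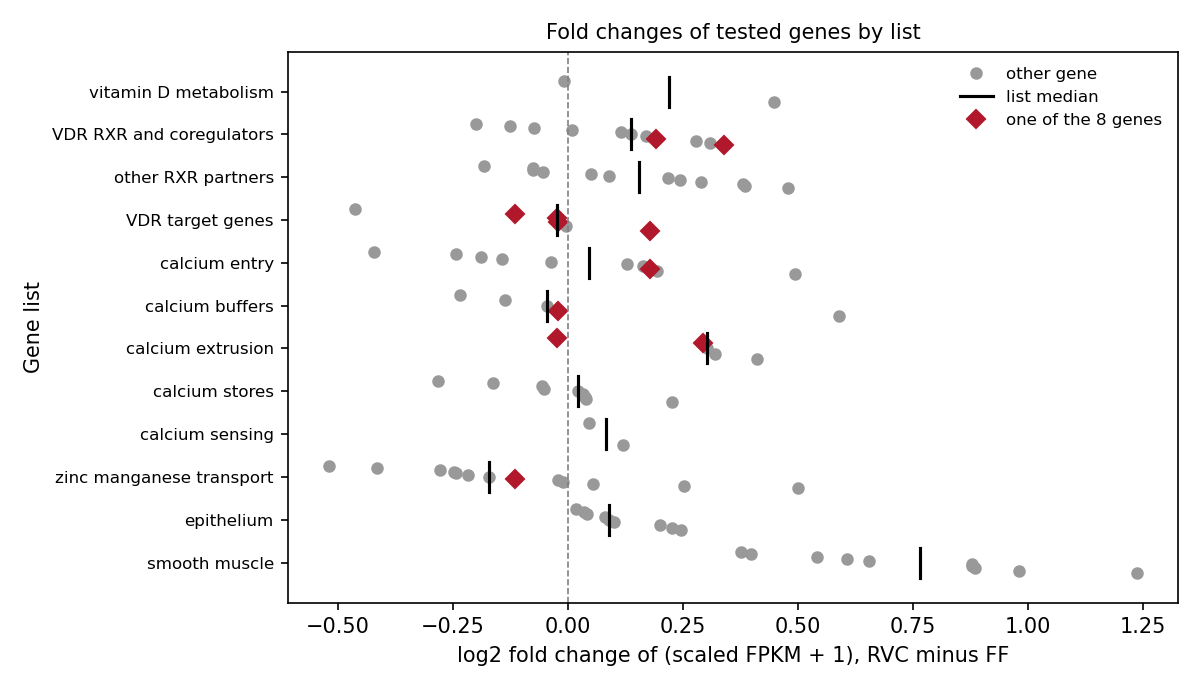
Log2 fold change of scaled FPKM plus 1, RVC minus FF, for tested genes of the 10 pathway lists and of the epithelial and smooth muscle markers; diamonds are genes of the 8, circles other genes, and black bars list medians. The 10 smooth muscle markers all lie to the right of 0 with a median of 0.77, while the medians of the pathway lists lie between -0.17 and 0.30.

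The genes most like S100g and Slc30a10 in their pattern were found by the smallest Euclidean distance of centred log2 values over the 4 libraries, among all genes tested. Of the 7 genes tested only these 2 had a range above 1 in log2 of scaled FPKM plus 1, as did 2.98% of all genes tested. Without the added 1, which narrows the range of low genes, Trpv6 also spanned more than a doubling, as its 2.13-fold range shows. Nearest to S100g were Syt8 (distance 0.392), Ighv1-84 (0.422) and Hoxd10 (0.461). All 3 were low, running from FF 2 to FF 1 at 0.354 to 3.23, 0.081 to 1.92 and 1.15 to 5.83 FPKM. Nearest to Slc30a10 were Ddah1 (0.174), Cpne8 (0.179) and Dclre1a (0.237), each lowest in FF 1 and highest in FF 2.

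Hoxd13, a posterior Hox gene from the list of colon markers, measured 9.59 and 26.0 FPKM in RVC and 39.5 and 5.68 FPKM in FF, the same order of libraries as S100g and Trpv6. Its FF 1 to FF 2 ratio of 6.95 was larger than that of either. Hoxd10, Hoxd11 and Hoxd12, looked at after Hoxd10 appeared beside S100g, held that order too, with ratios of 5.09, 7.05 and 11.6. Hoxd3, Hoxd4, Hoxd8 and Hoxd9, each under 1 FPKM in every library, did not hold it, and Hoxd1 was listed at 0. Nor did Hoxb13 and Hoxa13 from the colon list, and Hoxa13 was highest in FF 2 (22.2 FPKM). The relative depth of the libraries ran FF 1, RVC 2, RVC 1, FF 2 from shallow to deep, which is the order of Slc30a10 and the reverse of that of S100g. The part of depth in these orders was not tested.

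**Figure D4:**
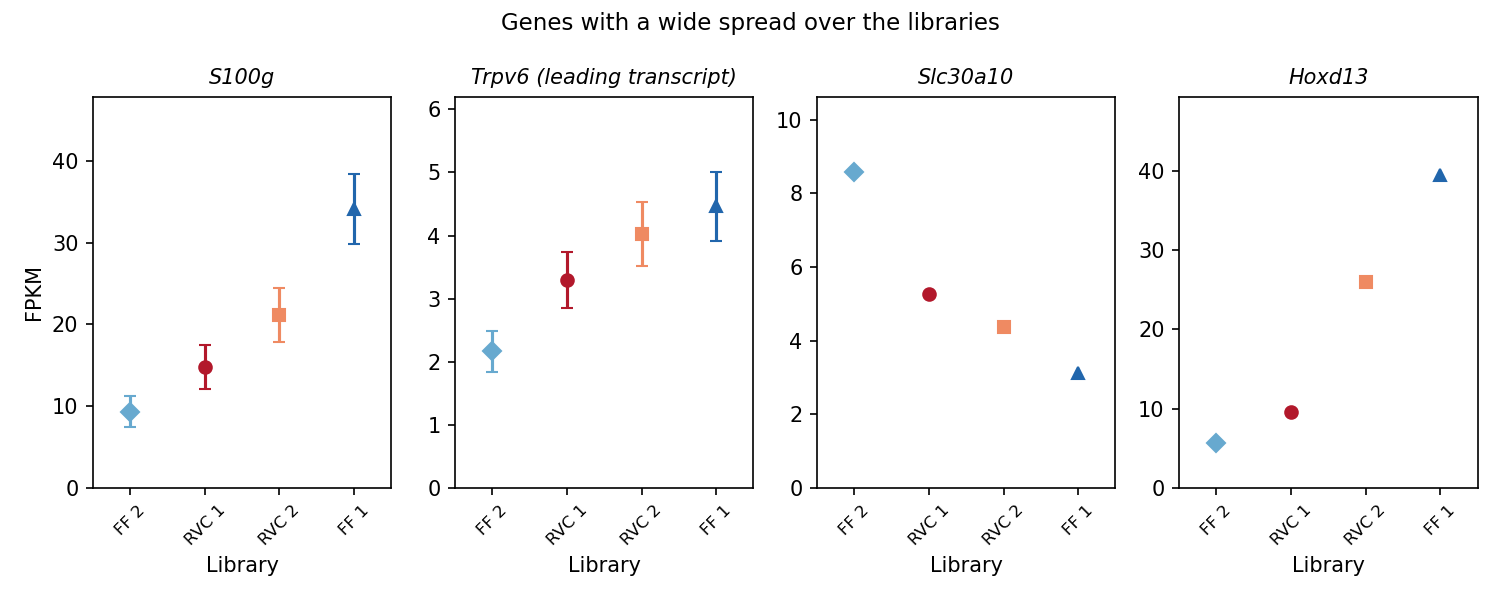
Level in FPKM (linear axes from 0) of S100g, the leading Trpv6 transcript, Slc30a10 and Hoxd13, with libraries in the order FF 2, RVC 1, RVC 2, FF 1; bars on the first and second panels are Cufflinks bounds. S100g, Trpv6 and Hoxd13 climb from FF 2 to FF 1 (9.33 to 34.1 FPKM for S100g) and Slc30a10 descends from 8.58 to 3.13 FPKM.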

How the data were processed

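Per the labels' protocols, total RNA was extracted in TRIzol, depleted of ribosomal RNA and sequenced as 150-bp paired-end reads. Per the submitters' processing notes, reads were processed with TopHat2 2.1.1 and Cufflinks 2.2.1 on GRCm39. The annotation release, strand setting and read filters are not given in the sources used here. The deposited tables give, per transcript and library, FPKM with its lower and upper bounds, and a coverage signal that the authors' Cufflinks run wrote and that served here only for relative depth. The median width of the bounds on either side was 16.9% to 19.4% of the value.

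Rows were joined by transcript identifier and FPKM summed per gene. For the comparison of RVC with FF, libraries were scaled by median ratios (factors 0.992 to 1.013), and limma 3.58.1 (R 4.3.3; lmFit and eBayes with trend, two-sided) was run on log2(FPKM + 1) for 13771 genes with a mean of at least 1 and a longest transcript of at least 300 nt and status OK in every library. Fold changes on this scale understate those of low genes. The code was tested on simulated data. From each list the text names genes past the adjusted threshold of 0.05, up to 4 with the highest mean, up to 4 at 0, paralogs, and the 3 genes most like a gene ranging over more than 1 log2 unit. Other genes were named after their values were seen: Cyp27b1, Calb1, Calb2, Cldn2 and Cldn12, the marker genes, Ephb6, Ctps2 and Gm2061, and the Hoxd genes other than Hoxd10. Some of the most abundant genes of the calcium buffer list are not reported here. The genes and lists were chosen with earlier results of these data known. Alternatives changed the pseudocount, scaling, filters, transcripts summed, variance model, replicate block and libraries included.

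Coordinates and sequences are GRCm39, gene positions from the deposited tables and exons from GENCODE vM39; RefSeq promoter windows (GRCm38.p6) gave motif shares only.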

Additional observations from a re-analysis of the deposited data

How the results depend on the processing

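None of the 7 tested genes passed the adjusted threshold under any alternative run (limma adjusted p at the lowest 0.163 for S100g, 0.176 for Rxra and 0.186 for Slc30a10). Changing only the gene filters, the trend or the replicate block left each fold change as it was and so could not turn a sign. Of 97 alternative log2 fold changes, those settings included, 91 kept their sign. The 6 that turned all left out a library: S100g gave 0.22 without RVC 1 and 0.85 without FF 1, Slc30a10 0.0021 without RVC 2 and 0.50 without FF 2, Atp2b1 0.019 without FF 1 and Trpv6 -0.22 without FF 2. Over the fits that left out a library, the values ran from -0.89 to 0.85 for S100g, -0.73 to 0.50 for Slc30a10, -0.22 to 0.58 for Trpv6 and -0.066 to 0.019 for Atp2b1. Where a group kept 1 library, that library was assumed to vary like the others. The cause was not tested. Vdr, Rxra and Slc8a1 stayed higher in RVC in all 14 alternatives. Both RVC libraries lay above both FF libraries for these genes, so leaving out a library could not turn their sign.

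Over all genes, the number past the threshold was 5. It was 6 with a pseudocount of 0.1, with no scaling or with upper-quartile scaling, 7 with no length minimum, 2 with a mean of at least 5, and 14 without RVC 2, 23 without FF 1, 25 without FF 2 and 30 without RVC 1. In limma it was 0 with no filter on low values (3531 genes at an unadjusted p under 0.05), 0 without transcripts under 300 nt (2577) and 0 without the trend (2461). The sample numbers are not stated to pair libraries, and deviations of same-numbered libraries correlated at r = -0.134 across genes; a replicate block on these numbers gave 112 genes, and a crossed block, added after seeing the data, 12. Counting a single transcript, the leading one, instead of the sum lowered the mean level to 59.99 FPKM for Atp2b1, 6.03 for Slc8a1, 0.0252 for Casr and 2.53 for Slc30a10.

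Without counts the depth is known only in relative terms, and with 2 libraries a group limma had few degrees of freedom. FF 1 and FF 2 differed more from each other in S100g, Trpv6 and Slc30a10 than the group means did.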
